A study of Mus musculus with 27 samples.

Results

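Class 3 semaphorins, plexins and neuropilins form one guidance system, and 8 of its genes were followed here in the mouse heart: the ligands Sema3a, Sema3c and Sema3d, the plexins Plxna2, Plxna4 and Plxnd1, and the neuropilins Nrp1 and Nrp2. The 8 were taken by name. All 8 were found among the 24025 genes of the bulk RNA-seq table and among the 19010 genes of the single-cell table. The series asked how deletions at Hand2as, a long non-coding RNA gene beside the heart transcription factor gene Hand2, change gene expression in heart tissue. All mice were C57BL/6. Allele F removes the full-length gene and allele D its distal 3' portion. The labels name no Cre driver.

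Bulk libraries came from hearts of E11.5 embryos (E gives the embryonic day; 3 heterozygous F/+ and 3 homozygous F/F), from ventricles at E16.5 (3 F/+ and 3 F/F) and from cells described as cardiomyocytes at 8 weeks (5 wild-type +/+, 2 heterozygous D/+ and 6 homozygous D/D). The embryonic bulk controls thus each carry 1 copy of allele F. Single-cell libraries came from E11.5 hearts, 1 library of +/+ and 1 of F/F, each pooled from 6 hearts. The labels do not say whether the bulk libraries come from separate animals, so p-values measure the spread between these libraries.

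A secreted class 3 semaphorin binds a neuropilin, which has little signalling activity of its own, and the plexin bound to that neuropilin carries the signal into the cell, where it loosens adhesion and collapses the cytoskeleton. In the developing heart this system is known for guiding neural crest cells into the outflow tract (Sema3c, Plxna2), for placing vessels and pulmonary veins (Plxnd1, Sema3d) and for patterning nerve fibres (Sema3a, Plxna4). Neuropilins have a further role as co-receptors for vascular endothelial growth factors.

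The genes lie on 4 chromosomes in the GRCm38 (mm10) assembly, the build of the single-cell data. Sema3d (chr5:12383385-12588948), Sema3a (chr5:13125414-13602565) and Sema3c (chr5:17574281-17730268) lie on the plus strand of chromosome 5. Plxna4 (chr6:32144268-32588192) and Plxnd1 (chr6:115954811-115995005) lie on the minus strand of chromosome 6. Plxna2 (chr1:194618218-194816869) and Nrp2 (chr1:62703285-62818695) lie on chromosome 1 and Nrp1 (chr8:128358604-128503363) on chromosome 8, all on the plus strand.

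The 3 ligands were, with Plxna4, the members whose bulk levels fell between E11.5 and E16.5, so the bases before the ligands' transcription starts are shown where these lie outside annotated exons. RefSeq (GRCm38.p6) gave a promoter window for 7 of the 8 genes, all but Plxna4, and only its 250 bases before the start were read. The E-box CANNTG, the general site of basic helix-loop-helix factors such as Hand2, was searched (the pattern is its own reverse complement, so both strands are covered) and is in capitals below. The Sema3a window is chr5:13396534-13396783, before an internal start of the gene, and the Sema3d window is chr5:12382916-12383165, both on the plus strand. The Sema3c window lies within an annotated exon and is not printed.
Sema3a: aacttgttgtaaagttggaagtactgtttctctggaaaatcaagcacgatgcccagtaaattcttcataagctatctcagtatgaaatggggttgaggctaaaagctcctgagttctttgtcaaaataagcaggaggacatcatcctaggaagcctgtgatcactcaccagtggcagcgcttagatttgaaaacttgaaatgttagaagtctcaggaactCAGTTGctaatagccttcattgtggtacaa
Sema3d: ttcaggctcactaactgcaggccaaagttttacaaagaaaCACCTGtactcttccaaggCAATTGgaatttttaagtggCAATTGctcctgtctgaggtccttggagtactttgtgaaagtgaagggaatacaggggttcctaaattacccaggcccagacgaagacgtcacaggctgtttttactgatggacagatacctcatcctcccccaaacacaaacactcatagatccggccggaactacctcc
The windows held 1 E-box for Sema3a, 2 for Sema3c and 3 for Sema3d (CACCTG once, CAATTG at the other positions), and none for Plxna2, Plxnd1, Nrp1 or Nrp2. Of all 32851 promoter windows of that length in the table, 66.2% held at least 1. These matches describe letters in a window and bear on no factor's binding.

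Bulk values are FPKM, fragment counts divided by transcript length and by library depth, which is meant to put genes on a common scale. Gapdh was listed at 0.12 to 5.09 FPKM in the embryonic libraries and at 980 to 2529 in the adult ones. Whether the values hold alike for all genes and stages was not tested. Levels of different genes or stages are thus set side by side only as listed. The FPKM of a library summed to between 334194 and 586795, and the reads behind a value are unknown. Transcripts of the deleted gene (LOC102636514 in the table) were listed at 0 in all 6 E11.5 libraries, which leaves their labels unchecked. At E16.5 they were between 0.37 and 1.40 FPKM in the F/+ libraries and 0 in the F/F libraries. At 8 weeks +/+ replicate 5 was listed at 0, against its label, while the other +/+ and D/+ libraries were between 5.25 and 13.5, and D/D libraries, which keep part of the gene, between 0 and 2.67. Haemoglobin genes took 10.4% to 29.7% of the FPKM at E11.5 and at most 2.42% later. Y-linked transcripts passed 1 FPKM in 3 of 3 F/F but 1 of 3 F/+ libraries at E16.5. The 8-week libraries carried endothelial markers as well (the 10 markers summed to between 111 and 508 FPKM, none at 0 in all libraries of a group, against a cardiomyocyte list of 37350 to 51880), so they were not cardiomyocytes alone. In bulk values fewer cells of a type and less RNA per cell cannot be told apart.

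Of the 8 members, Plxnd1, the semaphorin receptor of endothelial cells, had the highest bulk group mean at every stage. It was 70.1, 74.4 and 69.8 FPKM in the F/+ hearts at E11.5 and 75.4, 88.0 and 79.0 in the F/F hearts. At E16.5 it was 85.0, 74.8 and 81.5 in F/+ and 69.5, 71.4 and 78.9 in F/F ventricles. At 8 weeks it was 20.3, 22.5, 34.7, 27.7 and 51.2 in +/+, 21.9 and 29.7 in D/+, and in D/D ranged from 16.99 to 44.4 with a median of 24.5. As listed, all 13 adult libraries lay under all 12 embryonic ones.

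Nrp1, the co-receptor of Sema3a and of vascular endothelial growth factor A, came second by group mean at every stage. At 8 weeks Nrp1 was above Plxnd1 in +/+ replicate 1 (21.28 and 20.34 FPKM) and D/D replicate 2 (19.39 and 16.99). It was 21.6, 28.1 and 24.2 FPKM in F/+ and 29.4, 23.5 and 31.0 in F/F hearts at E11.5. It was 26.9, 31.7 and 33.2 in F/+ and 32.9, 32.5 and 30.4 in F/F ventricles at E16.5. The genotypes overlapped at both stages. At 8 weeks Nrp1 was 21.3, 19.7, 20.0, 8.52 and 13.99 in +/+, 17.7 and 21.3 in D/+, and 9.56 to 23.9 with a median of 21.1 in D/D. Only 2 of 13 adult libraries were under 10 FPKM, +/+ replicate 4 and D/D replicate 6.

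Nrp2, the co-receptor that also binds Sema3c and vascular endothelial growth factor C, was the neuropilin with the lower level. At E11.5 it was 10.4, 11.6 and 7.11 FPKM in F/+ hearts and 5.75, 7.10 and 4.68 in F/F hearts. The highest F/F library thus sat just under the lowest F/+ library. At E16.5 it was 12.4, 10.1 and 9.97 in F/+ and 11.46, 11.05 and 11.99 in F/F ventricles, which overlapped. At 8 weeks it was 4.99, 5.68, 8.60, 6.58 and 11.9 in +/+, 6.61 and 8.25 in D/+, and 4.59 to 12.3 with a median of 6.79 in D/D.

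Plxna4, a receptor of axon guidance, was 6.60, 9.33 and 8.58 FPKM in F/+ and 10.9, 9.28 and 10.5 in F/F hearts at E11.5. At E16.5 it was 4.18, 3.16 and 3.04 in F/+ and 2.78, 2.58 and 3.91 in F/F ventricles. At 8 weeks it was 2.33, 2.37, 2.26, 2.05 and 1.58 in +/+, 2.49 and 2.92 in D/+, and 1.41 to 3.48 with a median of 2.30 in D/D. All 6 libraries of E11.5 were above all 19 later ones.

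Plxna2, the plexin known from cardiac neural crest cells, ran the other way. It was 2.67, 4.49 and 2.07 FPKM in F/+ and 2.79, 1.96 and 3.87 in F/F hearts at E11.5, and 3.64, 4.08 and 3.65 in F/+ and 2.76, 3.02 and 3.84 in F/F ventricles at E16.5. At 8 weeks it was 7.65, 8.13, 7.62, 9.12 and 5.22 in +/+, 10.0 and 7.28 in D/+, and 5.79 to 8.92 with a median of 7.46 in D/D. As listed, every adult library was above every embryonic one, and Plxna2 was the one member of which that held.

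All 3 ligands had their highest group mean at E11.5, between 3.10 and 6.00 FPKM in F/+ hearts, where Plxna2 was at 3.08. Sema3a, the repellent that patterns cardiac nerves, was 7.00, 3.62 and 4.17 FPKM in F/+ and 4.53, 3.88 and 3.99 in F/F hearts at E11.5. It was 0.35, 0.56 and 0.49 in F/+ and 0.75, 0.26 and 1.07 in F/F ventricles at E16.5, and at most 0.25 in any adult library. No E16.5 library reached the lowest value at E11.5.

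Sema3c, the attractant of the outflow tract, was 6.75, 7.32 and 3.92 FPKM in F/+ and 8.92, 3.29 and 3.26 in F/F hearts at E11.5. It was 0.97, 1.19 and 0.95 in F/+ and 0.48, 0.38 and 0.66 in F/F ventricles at E16.5. At 8 weeks it was 1.30, 1.49, 1.36, 1.10 and 0.64 in +/+, 1.19 and 1.47 in D/+, and 0.15 to 1.90 with a median of 1.37 in D/D. It was the one ligand with adult values above 1 FPKM.

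Sema3d, which keeps endothelial cells out of regions it marks, was 4.88, 2.11 and 2.32 FPKM in F/+ and 4.70, 4.03 and 4.03 in F/F hearts at E11.5. It was 1.06, 1.01 and 0.78 in F/+ and 0.75, 0.76 and 0.84 in F/F ventricles at E16.5, and at most 0.25 in any adult library. In the order of group means, neighbours of the same stage overlapped for every member, except the F/+ and F/F ventricles for Sema3c. Nrp1 and Nrp2 had no gap between any neighbours. Because stage, tissue, cell isolation and control genotype all change between the embryonic and adult libraries, adult levels were not tested against embryonic ones. Gapdh also differed between them, at 0.12 to 5.09 FPKM in the embryonic and 980 to 2529 in the adult libraries. Whether both were quantified alike was not tested, so the order of adult and embryonic levels describes the listed values only.

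**Figure D1:**
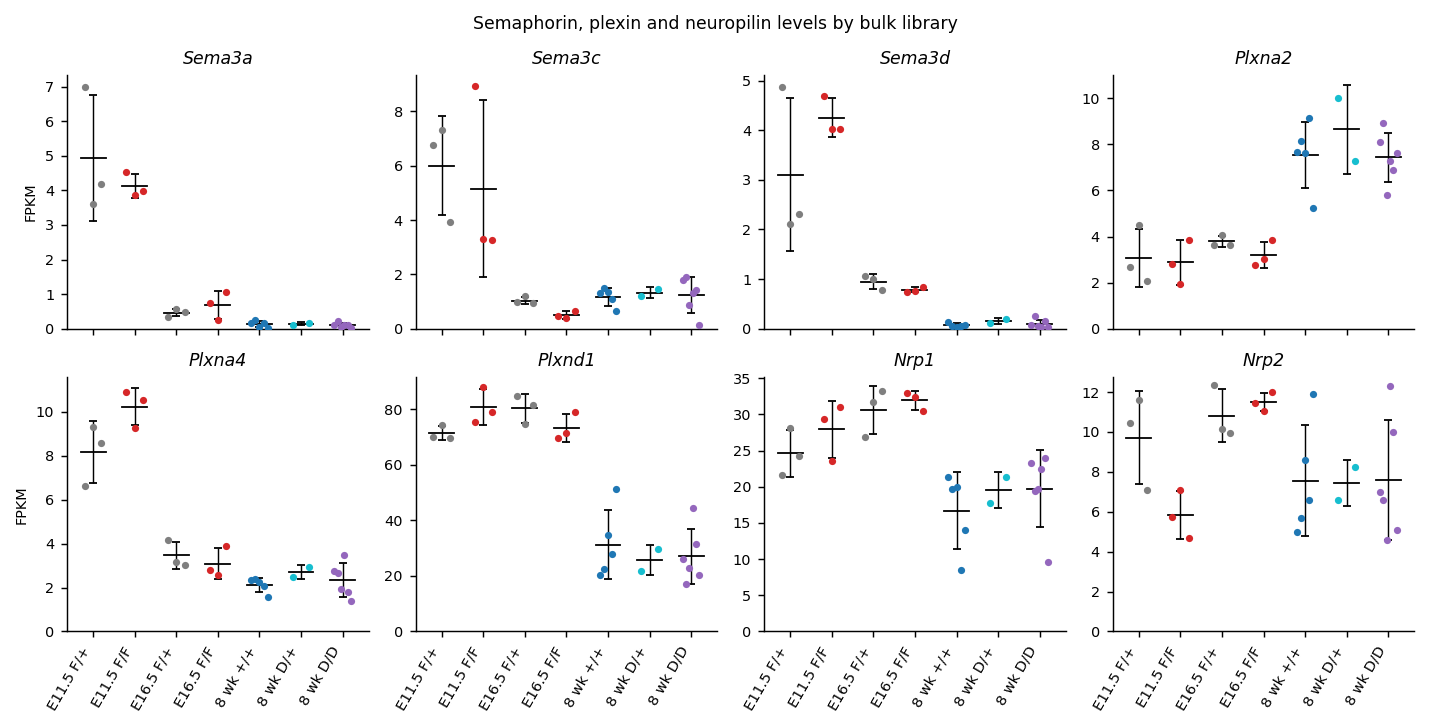
FPKM of each member (vertical axes, each starting at 0) in the 25 bulk libraries by stage and genotype; points are libraries, horizontal lines are means and bars are SDs. Sema3a, Sema3c, Sema3d and Plxna4 were highest in the E11.5 hearts, and Plxna2 was highest in the 8-week cells.

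In control tissue, 4 of the 8 members fell between the E11.5 heart and the E16.5 ventricle and none rose in the values as listed. The test was limma on log2(FPKM + 1) across the 11405 genes that averaged 1 FPKM or more, and a gene was called at a Benjamini-Hochberg adjusted p under 0.05. Over all genes tested 31% were called lower and 17.7% higher, so falls were common in the values as listed. Scaling the libraries by the median ratio of genes reversed that balance, as given below. The members' median difference was -0.43 on this log2 scale and that of all genes -0.18. Stage and the part of the heart collected change together and cannot be told apart.

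Sema3a went from 4.93 ± 1.81 to 0.467 ± 0.107 FPKM (mean ± SD, n = 3 each), a difference of -1.98 ± 0.27 (SE) on the log2(FPKM + 1) scale (limma, adjusted p = 0.000529). Sema3c went from 6.00 ± 1.82 to 1.04 ± 0.133 FPKM, a difference of -1.75 ± 0.25 (limma, adjusted p = 0.000742). Plxna4 went from 8.17 ± 1.41 to 3.46 ± 0.626 FPKM, a difference of -1.04 ± 0.20 (limma, adjusted p = 0.00316). In each of these 3 genes, all 3 E16.5 libraries lay under all 3 E11.5 libraries.

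Sema3d went from 3.10 ± 1.54 to 0.95 ± 0.149 FPKM, a difference of -1.01 ± 0.29 (limma, adjusted p = 0.0203). This call was lost when any 1 of the 3 E16.5 libraries was left out (limma adjusted p = 0.0522, 0.0605 and 0.0739), and the difference then lay between -0.95 and -1.06. Sema3a and Sema3d passed the filter on low values only through their E11.5 levels, and Sema3c was near 1 FPKM at E16.5. All 4 were called without that filter too (limma adjusted p between 0.00171 and 0.0333).

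Markers of epicardial and outflow cells were lower at E16.5 as well. The 8 epicardial markers summed to 248 to 401 FPKM in the E11.5 F/+ hearts and 65.6 to 75.8 in the E16.5 F/+ ventricles. The 6 outflow and second heart field markers summed to 29.6 to 69.1 and 5.72 to 7.96, with Isl1 and Fgf10 at 0 in all E16.5 F/+ libraries. Markers of foregut and lung epithelium summed to 34.95 to 65.2 and 2.78 to 4.08, with Epcam, Nkx2-1 and Shh at 0 in all of the latter. The 12 cardiomyocyte markers went the other way, from 13510 to 15780 FPKM at E11.5 to 21900 to 24700 at E16.5, and so did the 9 mesenchymal markers, from 431 to 556 to 1216 to 1379. Their part in the falls of the 3 ligands and Plxna4 was not tested.

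The other 4 receptors of the group were not called. Plxna2 (0.28 ± 0.25), Plxnd1 (0.17 ± 0.11), Nrp1 (0.30 ± 0.15) and Nrp2 (0.16 ± 0.20) had small positive differences with limma adjusted p of 0.385, 0.244, 0.128 and 0.534. Scaling the libraries by the median ratio of genes moved the median of all genes by 0.19 and the calls from 2016 higher and 3536 lower to 3022 higher and 2823 lower. Under that scaling Plxnd1 (0.39, adjusted p = 0.0205) and Nrp1 (0.52, adjusted p = 0.0182) were called higher by limma, and the 4 falls kept their calls.

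The rest of the system, 39 further genes taken as lists, gave a background for these values. Of 17 other semaphorins, 14 were tested in this stage comparison, with 8 higher, 2 lower and a median difference of 0.83 (all genes, -0.18). Sema7a, a membrane-anchored semaphorin, rose from 0.65 to 15.9 FPKM (3.35 ± 0.18, limma adjusted p = 7.305e-06). Sema3b (from 2.46 to 10.6 FPKM), Sema3g (1.29 to 6.21), Sema5a (1.29 to 4.03), Sema6a (3.64 to 7.28), Sema6b (0.74 to 4.01), Sema4b (5.35 to 11.03) and Sema4d (5.97 to 10.8) rose as well. Sema7a and Sema6b passed the filter only through their E16.5 levels. Both were called without it too (limma adjusted p = 9.718e-05 and 0.00255). Sema4g (4.81 to 1.89) and Sema6c (5.31 to 2.85) fell.

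Of 6 other plexins 5 were tested, with 1 called higher and 2 lower. Plxnb2, a receptor of class 4 semaphorins, rose from 55.2 to 76.97 FPKM, and Plxna3 (5.85 to 2.82) and Plxnc1 (4.86 to 2.01), the receptor of Sema7a, fell. All 16 intracellular partners were tested, with 3 called higher and 3 lower. Of all genes 17.7% were called higher and 31% lower. Dpysl3, a collapsin response mediator (69.4 to 102.6 FPKM), Mical3, an actin-oxidising enzyme (14.3 to 21.7), and Arhgef12 (10.7 to 15.9) rose. Dpysl5 (3.76 to 1.15), the kinase Cdk5 (17.6 to 11.6) and the small GTPase Rras (42.3 to 28.6) fell. All of these had limma adjusted p under 0.05, between 7.305e-06 and 0.0297.

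No member passed the test for deletion of the full-length gene at E11.5. Of 11491 genes tested, 0.0087% were called, a single gene named after its values were seen (Mir6236), and all 8 members were tested. The largest difference was that of Nrp2, 9.71 ± 2.32 FPKM in F/+ and 5.84 ± 1.21 in F/F (SD), or -0.64 ± 0.26 (SE) on the log2(FPKM + 1) scale (limma, adjusted p = 0.999). Nrp2 was lower in each F/F library than in each F/+ library, by a margin of 7.10 against 7.11 FPKM. Groups failed to overlap in 9.23% of all genes tested, and in 2 of the 8 members.

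The other was Plxnd1, at 71.4 ± 2.57 FPKM in F/+ and 80.8 ± 6.49 in F/F (0.17 ± 0.15, limma adjusted p = 0.999). The endothelial markers were all raised in single-cell clusters 13 and 8 (below), which together carried most Plxnd1 RNA. In bulk these markers summed to 334 to 374 FPKM in F/+ and 402 to 430 in F/F. All 10 of these markers were present and their part in the difference was not tested. For Nrp2 the outflow markers overlapped between genotypes, at 37.2, 69.1 and 29.6 FPKM in F/+ and 59.1, 41.1 and 28.2 in F/F.

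The remaining 6 members had overlapping groups and differences between -0.27 (Sema3c) and 0.42 (Sema3d), with limma adjusted p of 0.999 for each. Leaving out 1 library moved Sema3c between -0.67 and -0.06 and Sema3d between 0.25 and 0.71. For these 2 ligands 1 library of a group stood apart, F/F replicate 1 for Sema3c and F/+ replicate 1 for Sema3d.

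At E16.5 no member passed the test either, and 5 of the 8 were tested, since the ligands were under a mean of 1 FPKM. Of 10699 genes 0.00935% were called (again Mir6236 alone), and groups did not overlap in 6.78%, but in none of the 5 tested members. Their differences lay between -0.19 (Plxna2) and 0.09 (Nrp2). Sema3c, outside the filter, was 1.04 ± 0.133 FPKM in F/+ and 0.507 ± 0.142 in F/F (n = 3 each), and its groups did not overlap. Without the filter its difference was -0.44 ± 0.12 (limma, adjusted p = 1). Sema3a and Sema3d had values of 0.18 ± 0.19 and -0.13 ± 0.11 in that fit, both with overlapping groups.

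Whether the effect of F differed between the stages was tested in all 12 embryonic libraries. No member passed, against 0.00875% of 11423 genes (Mir6236). Nrp2 had the largest difference of effects, 0.72 ± 0.27 (limma, adjusted p = 0.999), from differences of -0.64 at E11.5 and 0.09 at E16.5. The other 7 lay between -0.54 (Sema3d) and 0.35 (Sema3a).

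In the 8-week cells 6 of the 8 members were tested against the 7 control libraries, all but Sema3a and Sema3d. No gene was called (0% of 10249, with 175 at an unadjusted limma p under 0.05), and groups did not overlap in 0.0293% of genes and in no member. Nrp1 had the largest difference, 17.5 FPKM in controls and 19.7 in D/D (0.16 ± 0.23, limma adjusted p = 0.9999). Without +/+ replicate 5, the library that went against its label, it was 0.12. The others lay between -0.13 (Plxnd1) and 0.00 (Plxna4), and without that library between -0.14 (Plxna2) and 0.09 (Nrp2). Leaving out any 1 library moved Nrp1 between 0.01 and 0.34 and Plxnd1 between -0.29 and 0.00441.

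The 8-week libraries held a set of 5 (replicates 1 and 2 of +/+ and D/D, and D/+ replicate 1) that stood apart from the other 8 when these data were analysed before, and the direction within the sets differed for some members. Sema3c was 1.33 in controls and 1.84 in D/D in the set of 5, and 1.14 and 0.938 in the set of 8. Nrp2 was 5.76 and 6.79 in the set of 5, and 8.83 and 7.99 in the set of 8. Nrp1 was 19.6 and 21.3 in the set of 5, and 15.95 and 18.9 in the set of 8. The libraries with the most Plxnd1, +/+ replicate 5 (51.2 FPKM) and D/D replicate 4 (44.4), were the ones with the most Nrp2 (11.9 and 12.3), and their endothelial markers summed to 366 and 269 FPKM. D/D replicate 5 had the highest endothelial sum, 508, with 31.6 FPKM of Plxnd1 and 9.98 of Nrp2. The part of endothelial cells in these levels was not tested.

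None of the 39 other genes of the system was called in any genotype comparison (28 to 36 of them were tested). Their median differences were 0.05 at E11.5, -0.05 at E16.5 and 0.01 at 8 weeks, beside 0.02, 0.00 and -0.01 for all genes.

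**Figure D2:**
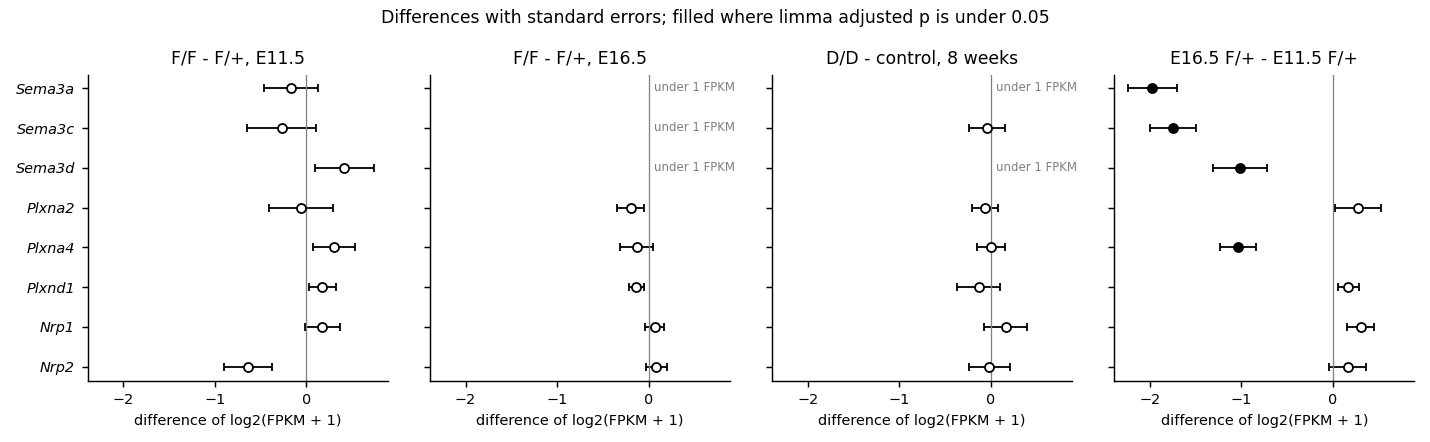
Differences of log2(FPKM + 1) with standard errors for each member (rows) in 4 comparisons; filled points have a limma adjusted p under 0.05, and "under 1 FPKM" marks members outside the filter. The filled points are Sema3a, Sema3c, Sema3d and Plxna4, all lower at E16.5 than at E11.5; no genotype comparison has one. The stage panel shares its F/+ libraries with the embryonic genotype panels.

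The single-cell libraries showed which E11.5 cells carried each gene. The +/+ library held 2563 barcodes and 38302758 unique molecular identifiers (UMIs, one per captured molecule), the F/F library 3469 and 51432290. Of the barcodes 18 had a sequence present in both. After removal of barcodes under 500 genes and of likely doublets, 2503 +/+ and 3368 F/F cells remained in 19 clusters, which were built without the members and the 39 other genes of the system. Levels are given as CPM, a gene's UMI count scaled to a common library total. They count 3' ends and carry no length term. All intervals on them are exact 95% intervals that cover counting error only.

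Names rest on marker lists. Clusters 2 (led by Myl2, ventricular), 4 (Nppa) and 15 (Cacna2d2 and Shox2) were cardiomyocyte-like, with 10 to 12 of 12 cardiomyocyte markers raised, together with cluster 18 of 10 cells. Clusters 3 (Twist1, Msx1) and 5 (Inhba, Postn, Meox1) were mesenchymal-like, cluster 6 epicardial-like (8 of 8 markers) and cluster 13 endothelial and endocardial-like (10 of 10). Cluster 8 (Stmn2, Klf2) had all 10 endothelial markers and cluster 9 (Rspo3, Ankrd1, Bmp4) all 12 cardiomyocyte markers. Both are left unnamed because genes of another list were among their leading 10. Cluster 12 (Rgs5, Eln) is unnamed too, and its best list, the mesenchymal one, had 4 of 9 markers raised. Erythroid-like cells made up 38.2% of the +/+ and 36.8% of the F/F cells.

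Red cells were taken as the background, since free RNA in the droplets can reach any barcode. Free RNA itself was not estimated. No member exceeded 2.36 CPM (Plxnd1 in F/F) in the erythroid-like cells of either library. Levels at or near that value, or under it, are read as background for every member. Nrp2 itself was lower in these cells, at 0.0726 CPM in +/+ and 0.658 in F/F.

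The 3 ligands peaked in different clusters, but cardiomyocyte-like cells held part of both Sema3a (43.7% of its UMIs) and Sema3c (25.2%). Sema3d came mainly from epicardial-like cells: cluster 6 held 86.9% of its UMIs while holding 6.76% of the cells. Its level there was 92.6 CPM in +/+ (95% interval 80.5 to 105.9) and 80.9 in F/F (72.4 to 90.2). The next level was 7.87 in +/+ (cluster 12, 7 UMIs) and 6.30 in F/F (cluster 15, 6 UMIs). The genes closest to it in pattern were Kcne1l, Wt1 and Upk1b (Pearson r = 0.95, 0.95 and 0.91 over 16 clusters of at least 50 cells, among 6128 genes), and Wt1 and Upk1b are epicardial markers.

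Sema3c came mainly from cluster 9, the cluster with cardiomyocyte and outflow genes, which held 54.8% of its UMIs and 5.13% of the cells. Its level there was 185 CPM in +/+ (166 to 205) and 224 in F/F (206 to 244). Cluster 12 followed with 48.3 and 64.3, and then the cardiomyocyte-like cluster 2 with 38.2 and 32.1. In +/+ the intervals of clusters 12 and 2 overlapped (35.0 to 65.1 and 31.6 to 45.8), and in F/F they did not (48.4 to 83.6 and 27.8 to 36.8). In cluster 4 it was 7.31 and 7.602.

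After thinning each cell to 5000 UMIs, Sema3c was seen in 49.2% of +/+ and 54.3% of F/F cells of cluster 9 (71.3% and 79.7% without thinning). In erythroid-like cells it was seen in 0.457% and 0.681%, at median depths of 10904 and 11652 UMIs against 14927 and 14264 in cluster 9. Its closest genes in pattern were Clu, Ndrg2 and Tceal5 (r = 0.95, 0.95 and 0.93).

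Sema3a was spread more widely. Cardiomyocyte-like cells held 43.7% of its UMIs and mesenchymal-like cells 22.1%. The highest levels in +/+ were 27.05 CPM in the endothelial cluster 13 (17.8 to 39.4), 17.8 in cluster 4 (13.8 to 22.5) and 17.3 in cluster 5 (12.98 to 22.7). In F/F they were 25.2 in cluster 15 (16.2 to 37.5), 20.8 in cluster 4 (16.53 to 25.8) and 14.2 in cluster 5 (10.4 to 19.0). The intervals of these neighbours overlapped, so no single highest cluster stands out. Cluster 15 had 1 UMI of it in +/+ and 24 in F/F. Sema3a had the reverse split of Sema3c between the cardiomyocyte-like clusters, at 6.59 and 7.19 in cluster 2 and 17.8 and 20.8 in cluster 4. Its closest genes were Tspan9, Igf2r and Ube2h (r = 0.96, 0.95 and 0.95).

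The plexins divided by cell type too. Plxnd1 came mainly from the clusters with all 10 endothelial markers: clusters 13 and 8 held 38.7% and 33.4% of its UMIs with 2.40% and 5.54% of the cells. Its level was 233 CPM in +/+ (204 to 265) and 218 in F/F (193 to 246) in cluster 13, and 136 (117 to 157) and 111 (97.3 to 125) in cluster 8. No other cluster of at least 50 cells was above 10.5 in either library. Its closest genes were Cd93, Rasip1 and Flt1 (r = 0.95 each), all of them known from endothelium.

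Plxna4 was highest in epicardial-like cells, at 86.9 CPM in +/+ (75.3 to 99.9) and 63.2 in F/F (55.6 to 71.5). The next was cluster 15 with 36.9 (20.7 to 60.9) and 29.4 (19.5 to 42.5), then cluster 8 with 27.7 and 21.8. The epicardial-like cells held 36.6% of its UMIs. Its closest genes were Syne2, Lats2 and Neo1 (r = 0.97, 0.96 and 0.96).

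Plxna2 was highest in the mesenchymal-like cluster 5, at 36.3 CPM in +/+ (29.9 to 43.7) and 22.7 in F/F (17.8 to 28.6). The other mesenchymal-like cluster, 3, had 8.27 and 5.95. Cluster 12 followed cluster 5 in both libraries, with 14.6 and 14.02. Mesenchymal-like cells held 49.7% of its UMIs. Its closest genes were 1500009L16Rik, Hspa13 and Fam171a1 (r = 0.95, 0.94 and 0.94).

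Nrp1 was above the red cell background in every other class or cluster of at least 50 cells. It was highest in epicardial-like cells (297 CPM in +/+ and 253 in F/F) and cluster 13 (295 and 253), whose intervals overlapped in both libraries. Cluster 8 had 159 and 157, cardiomyocyte-like cells 122 and 103, mesenchymal-like cells 87.8 and 90.7, and immune-like cells 32.5 over both libraries. Cluster 9, where Sema3c peaked, had the lowest level outside erythroid-like and immune-like cells, at 54.7 and 38.3. Its closest genes were Sept10, Ppic and Znhit1 (r = 0.99, 0.99 and 0.98).

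Nrp2 was narrower. It was highest in cluster 9 in +/+ (64.6 CPM, 53.7 to 77.03) and in cluster 12 in F/F (70.1, 53.5 to 90.2), the clusters that led for Sema3c. The intervals of these 2 clusters overlapped in both libraries. Epicardial-like cells came next, with 34.9 and 23.2. Mesenchymal-like cells had 0.633 and 0.679, at background, while their Nrp1 was 87.8 and 90.7. Cluster 9 held 37.0% of the Nrp2 UMIs, epicardial-like cells 26.7% and cluster 12 14.8%. Its closest genes were Parm1, Itm2a and Dlk1 (r = 0.88, 0.88 and 0.87).

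**Figure D3:**
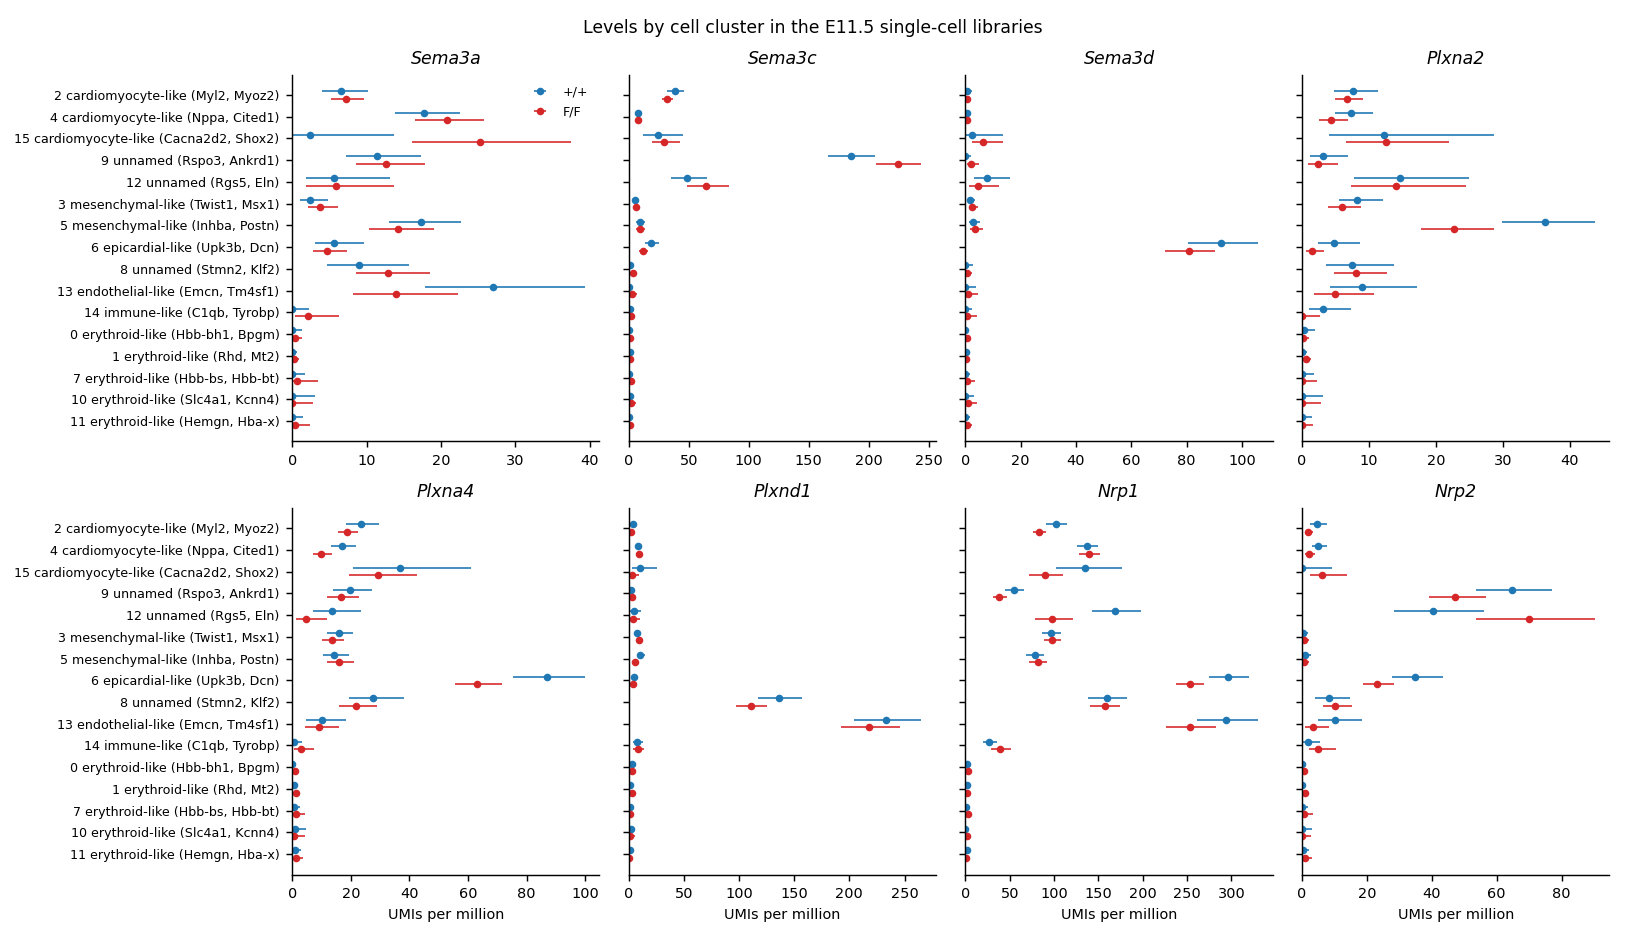
CPM of each member (horizontal axes, each starting at 0) in the 16 clusters of at least 50 cells, in the +/+ (blue) and F/F (red) library; bars are exact 95% counting intervals. Sema3d and Plxna4 peak in cluster 6, Sema3c in cluster 9, Plxna2 in cluster 5 and Plxnd1 in clusters 13 and 8, in both libraries.

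Set side by side, clusters differed in which of these genes they carried. The epicardial-like cells carried Sema3d with Plxna4, Nrp1 and Nrp2 and little Plxnd1 (4.80 and 3.497 CPM). Cluster 9 carried Sema3c with Nrp2. Its Plxna4 (19.8 and 16.7 CPM) did not set it apart, since cluster 2 had 23.4 and 18.8. Its Nrp1 (54.7 and 38.3) was the lowest outside erythroid-like and immune-like cells. Clusters 13 and 8 carried Plxnd1 with Nrp1. Cluster 8 had more Plxna4 than cluster 9 (27.7 and 21.8), and cluster 13 had less (10.02 and 9.02). In cluster 13, in cells thinned to 5000 UMIs, 41.8% of 134 cells had a UMI of both Nrp1 and Plxnd1, and Plxnd1 was seen in 58.3% of the cells with Nrp1 and 68.4% of those without. Across the 16 clusters the log levels of Nrp1 went with those of Plxna4 (r = 0.89) and Sema3a (r = 0.88) most closely, while Sema3c and Plxnd1 had r = -0.15. The clusters share 2 libraries and all have low levels in blood cells, so these coefficients are a description.

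**Figure D4:**
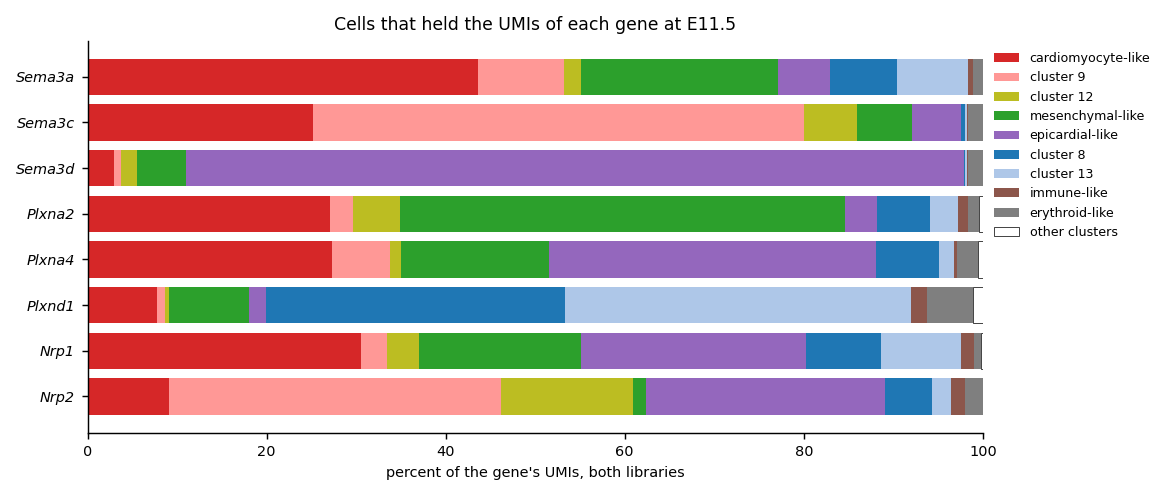
Percent of the UMIs of each member (horizontal axis, both libraries together) found in each class or cluster, from 0 to 100. The epicardial-like class holds 86.9% of Sema3d, cluster 9 holds 54.8% of Sema3c, and clusters 8 and 13 hold most of Plxnd1.

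With 1 library per genotype there is no replicate and no test between +/+ and F/F, and the 1.5-fold mark is used only to describe. It was applied to genes with at least 100 UMIs over both libraries. Over all cells, 1 of the 8 members was past it, Plxna2, at 6.78 CPM in +/+ and 4.50 in F/F, a ratio of 0.664 (95% counting interval 0.552 to 0.799). Of all 11838 genes 2.69% were past it. The other 7 lay between 0.860 (Nrp2) and 1.20 (Sema3d). These ratios mix cell types, and mesenchymal-like cells were 18.2% of the +/+ and 14.96% of the F/F cells.

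Within the mesenchymal-like cells, 1 of 6 members was past 1.5-fold (3.6% of all genes), again Plxna2. Its level was 21.8 CPM in +/+ and 13.2 in F/F, a ratio of 0.603 (0.460 to 0.788). In cluster 5 the ratio was 0.626 (0.459 to 0.850) and in cluster 3 0.719 (0.4004 to 1.29). The share of cluster 5 cells with Plxna2 was 15.5% and 10.2% at 5000 UMIs, with overlapping intervals (10.7% to 21.4% and 6.31% to 15.2%). In bulk E11.5 hearts, with F/+ controls, Plxna2 was 3.08 ± 1.26 FPKM in F/+ and 2.87 ± 0.958 in F/F.

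Epicardial-like cells had 1 of 4 members past the mark (4.68% of all genes). Nrp2 had a ratio of 0.665 (0.488 to 0.908), at the edge of 1.5-fold, and was not past it when barcodes under 1000 genes were removed or doublets kept. Plxna4 had 0.727 (0.601 to 0.880), Nrp1 0.854 (0.774 to 0.943) and Sema3d 0.874 (0.733 to 1.04), so all 4 were lower in F/F. Their median log2 ratio was -0.34, beside -0.02 for all genes of these cells.

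Cardiomyocyte-like cells had none of 6 members past 1.5-fold (2.37% of all genes). Nrp1 had a ratio of 0.845 (0.774 to 0.923), Plxna4 0.796 (0.639 to 0.993) and Sema3c 1.10 (0.896 to 1.35). Cluster 4 was the largest cluster of these cells in +/+ (220 of 457) and cluster 2 in F/F (436 of 767), and Nrp1 was 137 and 140 in cluster 4 and 102.5 and 83.3 in cluster 2. Cluster 4 gave 249 of the F/F cells. The mark was applied to the class as a whole. Within cluster 4 alone, Plxna4 (104 UMIs) would be past it, at 16.98 CPM in +/+ and 9.88 in F/F. That is a ratio of 0.582 (0.381 to 0.879), against 0.802 (0.593 to 1.092) in cluster 2. Sema3a (1.17) and Nrp1 (1.02) would not be past it in cluster 4.

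In cluster 9 none of 3 members was past the mark (4.16% of all genes). Sema3c was 1.21 times as high in F/F (1.06 to 1.39), and both neuropilins were lower, Nrp2 at 0.731 (0.563 to 0.949) and Nrp1 at 0.700 (0.524 to 0.933). In cluster 12 the 1 member with enough UMIs, Nrp1, was past it (6.18% of all genes), at 169 CPM in +/+ and 98.1 in F/F, a ratio of 0.582 (0.440 to 0.766). Nrp2 there, with 96 UMIs in all, went the other way, at 1.73 (1.13 to 2.70). Cluster 8 (4.72% of all genes) and cluster 13 (5.15%) had 0 of 2 members past it, Plxnd1 at 0.813 (0.668 to 0.989) and 0.934 (0.781 to 1.12), and Nrp1 at 0.984 (0.828 to 1.17) and 0.860 (0.731 to 1.01).

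Nrp2 was thus lower in F/F in cluster 9 and in epicardial-like cells and higher in cluster 12. Cardiomyocyte-like cells, with too few UMIs for the mark (59), had 4.53 CPM in +/+ and 2.29 in F/F. That is a ratio of 0.506 (0.291 to 0.873). The intervals were wide in cluster 8 (1.24, 0.5815 to 2.82) and cluster 13 (0.327, 0.0749 to 1.135). Over all cells the ratio of Nrp2 was 0.860 (0.735 to 1.01). In bulk hearts of the same stage, with other controls, it was 5.84 FPKM in F/F and 9.71 in F/+. The bulk difference did not pass adjustment and the single-cell one could not be tested.

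**Figure D5:**
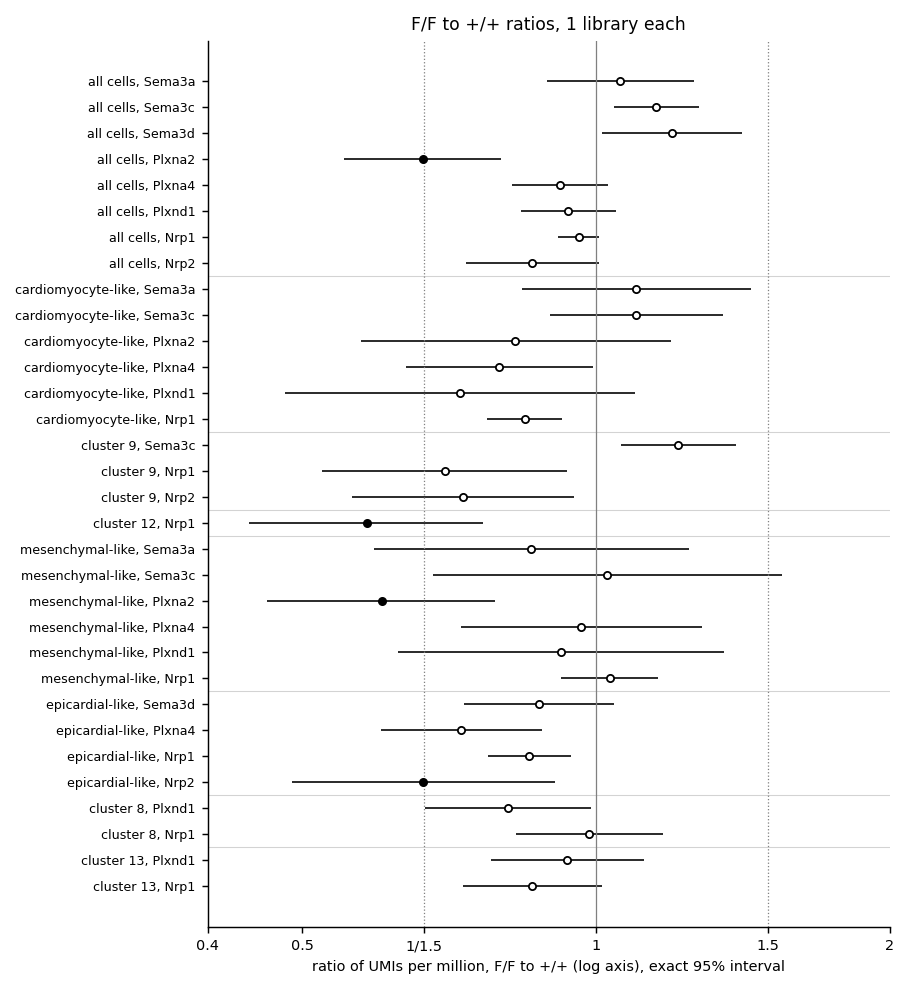
Ratio of CPM in F/F to +/+ (log axis) for members with at least 100 UMIs over both libraries, by class or cluster; bars are exact 95% counting intervals, dotted lines mark 1.5-fold and filled points lie past it. The filled points are Plxna2 over all cells and in mesenchymal-like cells, Nrp2 in epicardial-like cells and Nrp1 in cluster 12, all lower in F/F; there was 1 library per genotype.

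Among the other genes of the system, 38 of the 39 were found in the single-cell table. Sema6d had the highest level of the other semaphorins in cardiomyocyte-like (25.6 CPM over both libraries) and mesenchymal-like cells (28.1) and in clusters 9, 12 and 13, Sema6a in cluster 8 (46.8) and Sema3f in epicardial-like cells (11.6). Plxnb2 led the other plexins in cardiomyocyte-like (39.3), mesenchymal-like (33.1) and epicardial-like cells (74.8), and Plxnc1 in clusters 8 (42.9) and 13 (26.6). Of the intracellular partners, Dpysl3 led in mesenchymal-like (384) and cardiomyocyte-like cells (238), Dpysl2 in epicardial-like cells (142.5) and Gipc1, an adaptor of neuropilin tails, in cluster 13 (159).

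Few of them were past 1.5-fold in F/F, and those are named after their values were seen. Over all cells it was 0 of the 27 with enough UMIs. It was 1 of 15 in cardiomyocyte-like cells (2.37% of all genes) and 1 of 16 in mesenchymal-like cells (3.6%). It was 1 of 10 in epicardial-like cells (4.68%) and 1 of 6 in cluster 13 (5.15%). It was 0 of 9 in clusters 8 and 9 each, and 0 of 3 in cluster 12. Plxnb1 was lower in cardiomyocyte-like (13.2 and 7.76 CPM, ratio 0.589, 0.436 to 0.795) and epicardial-like cells (22.3 and 14.5, ratio 0.650, 0.439 to 0.967). Sema4c was lower in mesenchymal-like cells (17.9 and 10.7, ratio 0.600, 0.444 to 0.807) and Rras in cluster 13 (70.1 and 41.8, ratio 0.596, 0.407 to 0.868). None was past it upward in the classes and clusters looked at.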

How the data were processed

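Bulk poly(A) RNA libraries were TruSeq Stranded mRNA and the single-cell libraries 10x 3', per the labels' protocols. Bulk FPKM values are as deposited by the authors, with CASAVA, TopHat and TopHat2 2.0.11 and build mm9 per the submitters' processing notes. The unit was taken from the values and the counting software is not given in the sources used here. Single-cell UMI counts are as deposited by the authors, from Cell Ranger and mm10 per the submitters' processing notes. Identical lines of the bulk table (499) were merged and 1 gene, which lacked a value, was dropped. Each bulk comparison was its own fit in limma 3.58.1 with a mean-variance trend, on log2(FPKM + 1) of genes averaging 1 FPKM or more over the libraries compared, with Benjamini-Hochberg adjustment. The count of reads behind an FPKM is unknown.

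Cells were clustered with scanpy 1.11.5 after removing barcodes under 500 genes. The threshold that scrublet set marked 0.366% of barcodes, too few to be credible, so the barcodes of highest score were removed instead (52 +/+ and 96 F/F). Libraries were told apart by the suffix of the barcode. UMIs were summed per cluster and library, intervals are exact (Clopper-Pearson for shares, conditional on the sum for ratios), and shares of cells were taken after thinning to 5000 UMIs. Gene positions are from GENCODE vM21. The scripts were tested on simulated data. Members, gene lists and marker lists were chosen with earlier results of these data known. Named genes are the 8 members, other genes of the system called in a bulk comparison or highest of their list in a cell class, and the 3 genes most like each member. The alternatives tried were the pseudocount, the filter, library scaling, a fit of all libraries, covariates, a replicate block, the cell filter, doublets and leaving out each library.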

Additional observations from a re-analysis of the deposited data

Results flagged for a closer look

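Nrp1 in D/D replicate 6 at 8 weeks was 9.56 FPKM, the lowest of 6 D/D libraries. The nearest of the others was at 19.4 FPKM, a gap of 0.685 of the group's whole range, which is more than Dixon's 95% critical value for 6 samples. It was 1 of 16 groups of 4 to 10 libraries looked at, and chance flags about 1 in 20. The same library had the lowest Sema3c (0.15 FPKM) and the lowest Plxna4 (1.41 FPKM) of the D/D group. Its endothelial markers summed to 282 FPKM, within the range of the other D/D libraries.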

How the results depend on the processing

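No member passed the test in a genotype comparison under any bulk alternative run, and between stages the call of Sema3d was lost without 1 E16.5 library while median-ratio scaling added calls of Plxnd1 and Nrp1. Genes called, F/F against F/+ at E11.5 (1): 33 with all 25 libraries in 1 fit, 2 with the replicate block and 1 to 2 without 1 library. At E16.5 (1) they were 2 with a pseudocount of 0.1, 3 with a Y-linked covariate and 0 to 2 without 1 library. For the difference of effects (1) they were 2 with a pseudocount of 0.1, 3 without a filter on low values, 6 in the fit of all libraries and 1 to 9 without 1 library. Between stages 4002 to 6409 genes and 3 to 4 members were called without 1 library. No epicardial-like member (0) was past 1.5-fold with 1000 genes per barcode or with doublets kept. The cause of these moves was not tested.

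Directions turned only for small differences. At 8 weeks log2 differences became -0.0109 for Plxna4 (pseudocount 0.1), 0.001682 for Nrp2 (median-ratio scaling), and 0.17 for Sema3c and 0.0799 for Nrp2 (replicate block). Without 1 library the ranges were, at E11.5, -0.33 to 0.0687 for Sema3a and -0.24 to 0.18 for Plxna2, and at E16.5, -0.0217 to 0.13 for Nrp1. At 8 weeks they were -0.13 to 0.14 for Sema3c, -0.0913 to 0.0876 for Plxna4, -0.29 to 0.00441 for Plxnd1 and -0.15 to 0.10 for Nrp2. Between stages the range was -0.0272 to 0.29 for Nrp2. For the difference of effects they were -0.37 to 0.24 for Sema3c and -0.37 to 0.0480 for Plxna2. Of all alternatives, 481 member differences kept direction and call and 28 turned, and all 155 CPM ratios moved by less than their counting intervals.

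Same-numbered libraries did not deviate together in embryos (r between -0.435 and 0.082). At 8 weeks r was 0.527, 0.418 and 0.213 for replicates 1, 2 and 5 and -0.039 and -0.107 for replicates 3 and 4. Pairing was not taken as given at any stage, since some pairs were under 0.1. The replicate block left 1 call at E16.5, 0 at 8 weeks and 5252 between stages (5552 without it). FPKM hides read depth, so ligands near or under 1 FPKM at E16.5 and 8 weeks are the least certain levels. Single-cell genotypes have 1 library each.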
